A study of Mus musculus with 17 samples.

Results

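The nuclear genes for subunits of the mitochondrial respiratory chain were followed in mouse prefrontal cortex across 3 genotypes. Genes were chosen by symbol alone, with no measured value: symbols that begin with Nduf followed by a subunit letter, Sdha to Sdhd, Uqcr, Cox4 to Cox8, and Atp5. Of 107 symbols that matched, 15 pseudogenes and Cox6a2 were left out, which gave 91 of the 56953 genes in the count table. By prefix, 43 belonged to complex I, 4 to complex II, 8 to complex III, 18 to complex IV and 18 to complex V. The filter on low counts was passed by 87 of the 91, namely 41, 4, 8, 17 and 17 of the 5 complexes in that order. Cox8c, Ndufb11b and another entry named Atp5o (ENSMUSG00000116933) had 0 counts in every library, and Ndufa11b had 0 to 13 counts, so these 4 were not tested.

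PolyA RNA was sequenced from 8-month-old mice, 1 library per sample, on the B6C3F1/J background. WT mice (n = 5) carried neither allele. PS19 mice (n = 6, labelled hTau) expressed human P301S Tau from a transgene driven by the promoter of the mouse prion protein gene, which is active in neurons and in other cells. CgA-KO/PS19 mice (n = 6) carried the same transgene and lacked chromogranin A, the product of Chga, in the whole body, so that every CgA-KO/PS19 library differs from WT by both alleles. A group with the deletion but without the transgene was not analysed here. The labels number the samples within a genotype and do not say which mouse each came from or its sex. Chga checked the labels: in CPM (counts divided by library size) it was at 163 ± 11.9 (SD, n = 5) for WT, at 168 ± 6.68 (SD, n = 6) for PS19, and had 0 counts in 6 of 6 CgA-KO/PS19 libraries. Summed CPM of 10 neuron markers was 9243 to 16769 in every library.

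The respiratory chain passes electrons from NADH and succinate to oxygen and stores the energy as a proton gradient, which ATP synthase uses to make ATP. Complex I takes electrons from NADH, complex II from succinate, complex III passes them from ubiquinol to cytochrome c, complex IV passes them to oxygen, and complex V is the ATP synthase. Most subunits are encoded in the nucleus and imported, while a small core of complexes I, III, IV and V is encoded in mitochondrial DNA. Neurons depend on this pathway for the ion pumping that follows each action potential, and nuclear subunit genes are classically bound by the factors NRF1, GABPA (an ETS factor), YY1 and Sp1.

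Promoters of 70 of the 91 genes were found in the RefSeq table (GRCm38.p6), as the window from 250 bases before to 50 bases after the start of the gene. Motifs were searched as exact letters on both strands. The NRF1 motif GCGCATGC was in 10 of 70 (14.3%), against 3.05% of the promoters of all 27025 genes in the table. For the ETS motif CCGGAAG these shares were 17 of 70 (24.3%) and 9.93%, and for the YY1 motif AAGATGGCG they were 7 of 70 (10%) and 1.64%. The Sp1 motif GGGGCGGGG (15.7% against 12.9%) and CCAAT (42.9% against 41.1%) were in similar shares of both. By complex, the ETS motif was in 6 of 15 promoters of complex V, 2 of 5 of complex III, 2 of 3 of complex II, 3 of 13 of complex IV and 4 of 34 of complex I. The 5 stretches of 150 bases that end at the start of the gene are given 5′ to 3′ in the direction of the gene. Each holds an NRF1, ETS or YY1 match, the motifs most over the share of all promoters. Capitals mark NRF1, ETS, YY1 and Sp1 matches or their complement, and CCAAT is not marked. Sdhb (chr4:140961121-140961270, + strand) holds an Sp1 match, then an NRF1 match, and Sdhd (chr9:50603850-50603999, - strand) an ETS match. Atp5k (chr5:108434400-108434549, - strand) holds NRF1 matches on both strands, which overlap. Uqcrh (chr4:116075071-116075220, - strand) holds an ETS match close to its start, and Atp5j (chr16:84834977-84835126, - strand) a YY1 and an ETS match.
Sdhb: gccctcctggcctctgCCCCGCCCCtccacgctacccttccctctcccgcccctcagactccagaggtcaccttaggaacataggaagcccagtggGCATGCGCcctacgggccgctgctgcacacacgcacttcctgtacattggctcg
Sdhd: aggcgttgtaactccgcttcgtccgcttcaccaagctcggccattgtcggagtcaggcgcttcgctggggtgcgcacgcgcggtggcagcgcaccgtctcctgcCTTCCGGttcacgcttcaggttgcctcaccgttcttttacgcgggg
Atp5k: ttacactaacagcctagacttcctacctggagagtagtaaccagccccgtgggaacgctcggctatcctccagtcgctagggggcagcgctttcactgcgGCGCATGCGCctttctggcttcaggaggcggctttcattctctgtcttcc
Uqcrh: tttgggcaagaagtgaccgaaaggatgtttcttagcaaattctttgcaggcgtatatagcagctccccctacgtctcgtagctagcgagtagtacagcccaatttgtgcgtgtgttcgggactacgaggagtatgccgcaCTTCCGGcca
Atp5j: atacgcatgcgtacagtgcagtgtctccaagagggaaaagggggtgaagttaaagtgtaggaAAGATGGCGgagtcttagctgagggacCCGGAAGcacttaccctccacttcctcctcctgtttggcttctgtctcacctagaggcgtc
In the same stretches of Cox5b, Ndufb4, Cox7a2 and Atp5md, which recur in the results, none of these motifs other than CCAAT was present. In the whole window searched, Atp5md was among the 17 genes with an ETS match.

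Subunit genes took 0.600 to 0.785% of all counts per library. Levels of different genes were compared per length, as CPM per kilobase of exon, averaged over the 17 libraries. Cox8a, a small subunit of complex IV, was highest at 278 ± 65.5 (SD, n = 17), followed by Cox6a1 (187), Atp5b (186), Atp5a1 (186) and Cox6b1 (185). The SDs of the latter 4 over the libraries were 18.6 to 45.4, so their order was within the spread. In all, 6 genes were at or above 100, 75 were at or above 10 and 5 were under 1. Those 5 were Ndufa4l2 (0.951), Cox7b2 (0.592), Cox6b2 (0.526), Ndufs6b (0.303) and Cox8b (0.287). The median level was 30.0 for complex I, 42.0 for II, 63.6 for III, 50.2 for IV and 43.7 for V. With the length of the longest transcript it was 65.7 for IV and 70.7 for V, so their order depended on the length used. Single genes are ranked here on exon length only. Highest and lowest were Ndufb9 (91.6) and Ndufs6b in complex I, Sdha (91.8) and Sdhc (20.8) in II, Uqcr10 (72.3) and Uqcrq (23.3) in III, and Atp5b and Atp5l (3.65) in V. Cox8a and Cox8b were the extremes of complex IV.

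**Figure D1:**
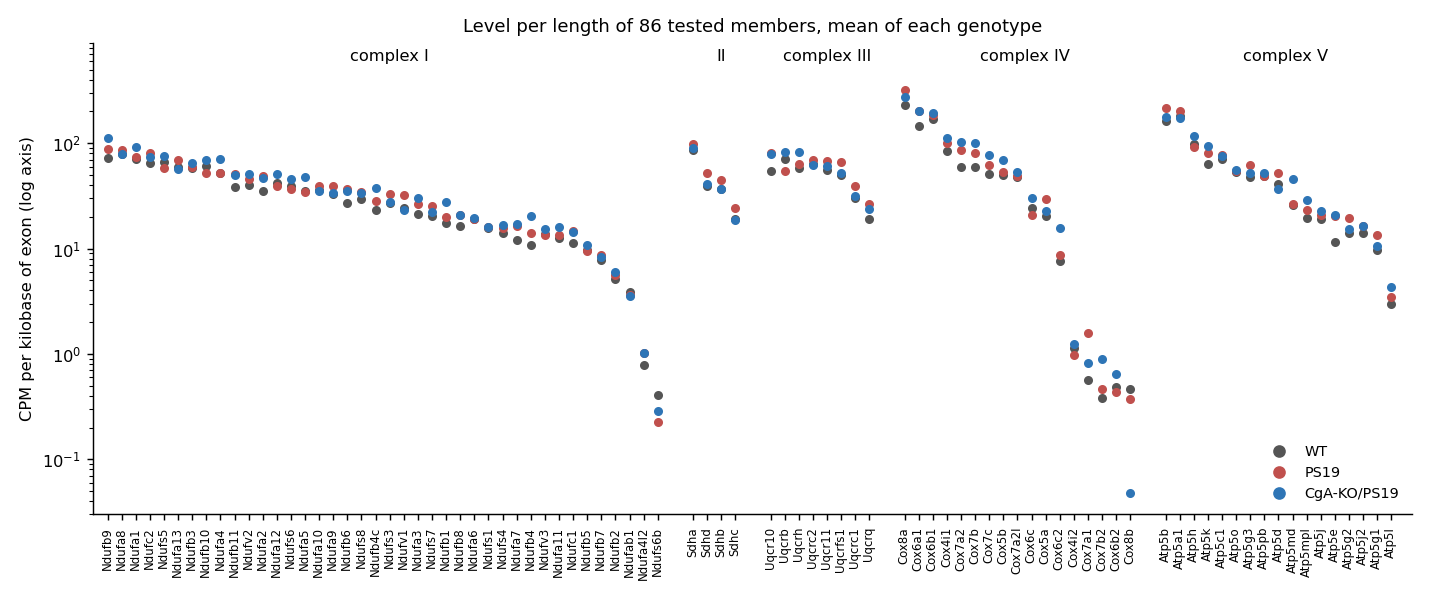
Mean level per length (CPM per kilobase of exon, log axis) of 86 of the 87 tested subunit genes in each genotype, grouped by complex. Levels run from 0.287 for Cox8b to 278 for Cox8a as means over all 17 libraries, and most genes lie between 10 and 100.

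Most isoform pairs were strongly uneven in level per length. Cox4i1, the common form of a regulatory subunit of complex IV, made up 98.6 to 99.0% of Cox4i1 and Cox4i2 together as the mean of each genotype. For Cox6b1 over Cox6b2, whose product is known from testis, the share was 99.7 to 99.8%, for Cox7b over Cox7b2 99.2 to 99.4%, and for Cox8a over the muscle form Cox8b 99.8 to 100%. Ndufa4, grouped with complex I by its symbol although its product is now placed with complex IV, took 96.9 to 100% of its sum with Ndufa4l2 in single libraries. With genotypes in the order WT, PS19, CgA-KO/PS19, Cox7a2 took 99.1, 98.2 and 99.2% of its sum with the muscle form Cox7a1. Against Cox7a2l, a factor that joins complexes III and IV, its share was 55.5, 63.7 and 64.9%, with single libraries from 48.8 to 72.6%. Of the 3 genes for the identical c subunit of ATP synthase, Atp5g3 exceeded Atp5g1 (82.0 to 83.4% of the pair) and Atp5g2 (75.7 to 77.9%) in each genotype mean. Ndufb4c, Ndufs6b and Cox6c2 are close copies of Ndufb4, Ndufs6 and Cox6c, so counts could be shared between them and their values are uncertain.

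Several libraries stood apart before any gene was compared. Total counts ran from 8838334 in WT library 4 to 227651681 in PS19 library 6. Mitochondrially encoded genes took 3.53 to 7.94% of counts in WT and 2.56 to 4.59% in PS19, against 13.8 to 18.2% in CgA-KO/PS19 libraries 1 to 3 and 3.84 to 10.9% in libraries 4 to 6. Y-linked Ddx3y was at 49.8 to 76.8 CPM in the 9 libraries numbered 1 to 3 and at 0 to 0.0582 CPM in the 8 numbered 4 to 6. Among subunit genes above 10 CPM (n = 79), the SD of the log2 ratio of a pair of libraries was 0.566 to 0.638 for pairs with WT library 4 and 0.174 to 0.213 for the other WT pairs. It was 0.105 to 0.120 among PS19 libraries 4 to 6, the closest of any genotype, and 0.139 between CgA-KO/PS19 libraries 1 and 3. Over 9837 genes above 10 CPM, deviations in WT library 4 and CgA-KO/PS19 library 6 fell with GC content (r = -0.480 and -0.501), against -0.282 to 0.338 in the others. Summed CPM of 16 striatum markers was 793 to 3050 in WT and 207 to 262 in PS19. CgA-KO/PS19 had 238 to 2137, where it was 238 to 249 in libraries 4 to 6. In bulk tissue, fewer cells of a type and less RNA per cell cannot be told apart.

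A score per complex, the mean over its tested genes of log2(CPM + 1) centred over the 17 libraries, gave a first view. Complex II had scores of 0.08 to 0.31 in PS19 and of -0.50 to 0.04 in WT, so these groups did not overlap. The mean for complex IV went from WT (-0.20 ± 0.12, SD, n = 5) through PS19 (0.02 ± 0.12, SD, n = 6) to CgA-KO/PS19 (0.14 ± 0.19, SD, n = 6). The last group split by library number: libraries 1, 2 and 3 had 0.36, 0.23 and 0.33, and libraries 4, 5 and 6 had -0.01, -0.06 and -0.01. In the same order, complex I was at -0.15 ± 0.09, 0.03 ± 0.07 and 0.09 ± 0.11, complex III at -0.17 ± 0.13, 0.10 ± 0.07 and 0.04 ± 0.13, and complex V at -0.18 ± 0.12, 0.09 ± 0.11 and 0.07 ± 0.17. In all 5 complexes the WT mean was thus the lowest of the 3 genotypes. Complex II alone had a CgA-KO/PS19 mean (-0.09 ± 0.18) nearer that of WT (-0.12 ± 0.22) than that of PS19 (0.19 ± 0.07). These scores are descriptions and were not tested.

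**Figure D2:**
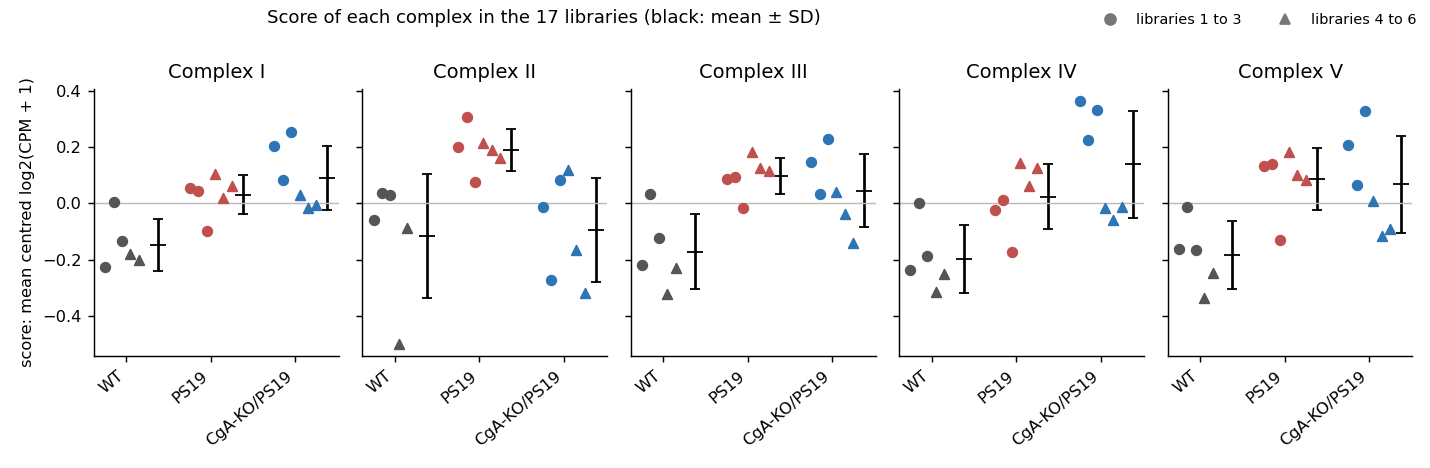
Score of each complex in every library (mean centred log2(CPM + 1) over its tested genes) by genotype, with circles for libraries 1 to 3, triangles for libraries 4 to 6, and the mean ± SD in black. Complex IV in CgA-KO/PS19 falls into circles at 0.23 to 0.36 and triangles at -0.06 to -0.01.

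WT was compared with PS19 to ask how the Tau transgene is associated with subunit transcripts. Subunit genes were mostly lower in WT than in PS19 by modest amounts, and 3 of 87 passed the test (FDR under 0.05, edgeR quasi-likelihood with Benjamini-Hochberg adjustment over 23062 genes). All 3 were lower in WT (3.45%, against 1.95% of all genes called lower), and Cox5a and Ndufs7 were among them. None was higher, against 3.95% of all genes. By the rule of the study's methods, an absolute log2 fold change over 0.5 with an unadjusted p under 0.01, 0 were higher and 4 were lower (Atp5e, Cox5a, Cox7a2 and Uqcr10), against 4.57 and 2.81% of all genes. At an unadjusted p under 0.05, 29 of 87 passed, all lower in WT, as did 4825 of 23062 genes in either direction. The libraries of both genotypes did not overlap for 10 of the 87, all lower in WT (11.5%, against 5.13% of all genes). Among them were Ndufv1, Ndufa9 and Ndufc2 of complex I, Sdhd, Uqcrc1 and Uqcrfs1, Cox5a, and Atp5a1 and Atp5b of ATP synthase. The direction was shared widely: 70 of 87 log2 fold changes were below 0, with a median of -0.22, while 51.2% of all genes were below 0 with a median of -0.01.

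Cox5a (ENSMUSG00000000088.8, chr9:57521274-57532426, mm10) encodes a subunit of complex IV on the matrix side. It was at 44.3, 52.2, 46.8, 31.4 and 39.9 CPM in WT libraries 1 to 5, and in PS19 its lowest, median and highest values were 53.9, 61.6 and 66.6 CPM. Every PS19 library was above every WT library. Its log2 fold change was -0.52 (SE 0.12, adjusted p = 0.0189). Ndufs7, a core subunit of complex I that carries the last iron-sulfur cluster before ubiquinone, was at 34.8, 39.0, 35.3, 34.7 and 31.4 CPM in WT and at 38.3, 43.7 and 49.1 CPM (lowest, median, highest) in PS19. These ranges overlapped at their ends, and the log2 fold change was -0.32 (SE 0.09, adjusted p = 0.0450). Calls in this comparison rested on few libraries. Of 87 genes, 0 were lower without WT library 5, 1 without WT library 3 or 4 or PS19 library 1, 2, 4, 5 or 6, 5 without CgA-KO/PS19 library 3 or 6, and 7 without WT library 2. With the close PS19 libraries 4 to 6 averaged to 1 sample, and CgA-KO/PS19 libraries 1 and 3 to another, 0 were lower.

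Grouped by role, a grouping made with the values known, core and catalytic subunits had log2 fold changes below 0 in WT against PS19. The 7 core subunits of complex I that bind NADH, FMN and iron-sulfur clusters or ubiquinone had a median of -0.30, and all 7 were below 0. Ndufs1, the largest of them, was the exception in size, at -0.01 (SE 0.12, adjusted p = 0.987). The core proteins Uqcrc1 and Uqcrc2 and the Rieske protein Uqcrfs1 had a median of -0.39, and the 5 small subunits of complex III one of -0.26. In complex V, the 5 genes of the F1 head and central stalk had a median of -0.35, the 3 c ring genes -0.46, the 4 of the peripheral stalk -0.03 and the 5 small membrane subunits -0.22. Atp5b, the catalytic beta subunit, averaged 682 ± 136 CPM (SD, n = 5) for WT against 917 ± 45.8 CPM (SD, n = 6) for PS19, which did not pass the test (log2 fold change -0.43, SE 0.14, adjusted p = 0.0754). All 4 genes of complex II were below 0, from -0.19 (Sdha) to -0.38 (Sdhd), and none passed. The medians by complex were -0.18 for I, -0.30 for II, -0.33 for III, -0.23 for IV and -0.22 for V.

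**Figure D3:**
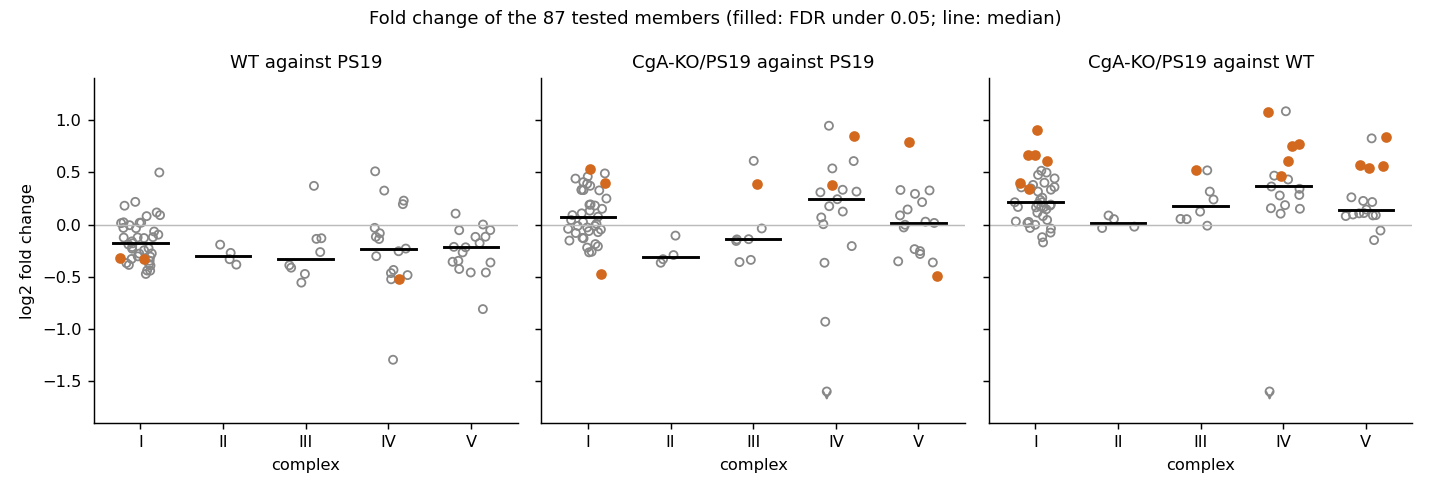
Log2 fold changes of the 87 tested subunit genes in the 3 comparisons, by complex, with filled points for an FDR under 0.05 and a line at each median. In WT against PS19 70 points lie below 0 and 3 are filled, and in CgA-KO/PS19 against WT 75 lie above 0 and 16 are filled. The axis ends at -1.6, and an arrow stands for Cox8b at -2.49 and -3.00, a gene of at most 73 counts in any library that did not pass the test.

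CgA-KO/PS19 was compared with PS19 to ask what loss of chromogranin A changes on the Tau background. Subunit genes moved in both directions: 6 of 87 rose (6.90%, against 5.50% of all genes) and 2 fell (2.30%, against 4.22%). Those that rose were Ndufb4 and Ndufb10 of complex I, Uqcrh of complex III, Cox5b and Cox6c2 of complex IV and Atp5md of complex V, and those that fell were Ndufv1 of complex I and Atp5d of complex V. Both shares are near those of all genes. By the rule of the study's methods, 3 rose (Cox6c2, Ndufb4 and Atp5md) and 0 fell, against 6.30 and 3.44% of all genes. At an unadjusted p under 0.05, 17 were higher and 15 lower, and 6420 of 23062 genes passed in either direction. Log2 fold changes were above 0 for 48 and below 0 for 39 genes, and their median (0.03) equalled that of all genes to 2 decimals. Libraries did not overlap for 2 of 87, Ndufb4 and Ndufb10, both higher in CgA-KO/PS19 (2.30%, against 2.84% of all genes).

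Ndufb4 (ENSMUSG00000022820.5, chr16:37647170-37654453, mm10) encodes an accessory subunit of the membrane arm of complex I. It was at 44.4, 43.6, 46.7, 29.9, 31.8 and 36.6 CPM in CgA-KO/PS19 libraries 1 to 6 and at 24.7, 26.8 and 29.5 CPM (lowest, median, highest) in PS19. The lowest CgA-KO/PS19 library was just above the highest PS19 library, and libraries 1 to 3 were above libraries 4 to 6. Its log2 fold change was 0.53 (SE 0.12, adjusted p = 0.0137). Ndufb10, another accessory subunit of that arm, was at 73.6, 93.5, 73.9, 74.7, 101 and 85.2 CPM in CgA-KO/PS19 and at 58.8 to 65.3 CPM in PS19. Here libraries 1 to 3 and 4 to 6 intermingled, and the log2 fold change was 0.40 (SE 0.11, adjusted p = 0.0257). Its level in WT, 59.0 to 86.2 CPM, overlapped both of the other groups.

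Atp5md (also known as Usmg5) encodes a small membrane subunit that helps ATP synthase form dimers. Its levels were 131, 151, 142, 78.6, 91.8 and 167 CPM in CgA-KO/PS19 libraries 1 to 6, and 63.0, 74.3 and 81.5 CPM (lowest, median, highest) in PS19. All but library 4 were above every PS19 library, and the log2 fold change was 0.79 (SE 0.19, adjusted p = 0.0164). Cox5b, which encodes a zinc-binding subunit of complex IV, was at 116, 117, 116, 79.8, 113 and 114 CPM in CgA-KO/PS19 and at 73.0 to 94.5 CPM in PS19. Library 4 alone lay within the PS19 range, and the log2 fold change was 0.38 (SE 0.10, adjusted p = 0.0325). Uqcrh, the hinge protein of complex III, was at 72.0 to 124 CPM in CgA-KO/PS19 and 69.6 to 86.5 CPM in PS19 (log2 fold change 0.38, SE 0.12, adjusted p = 0.0484). Cox6c2, a copy of Cox6c whose counts are uncertain, was at 2.42 to 4.85 CPM against 1.66 to 2.96 CPM (log2 fold change 0.84, SE 0.19, adjusted p = 0.0147).

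Ndufv1, the subunit of complex I that binds NADH and FMN, was at 61.1, 45.6, 60.2, 87.7, 61.4 and 50.7 CPM in CgA-KO/PS19 libraries 1 to 6 and at 78.6, 83.0 and 95.4 CPM (lowest, median, highest) in PS19. Library 4 again lay within the PS19 range, and the other 5 were below it. Its log2 fold change was -0.47 (SE 0.13, adjusted p = 0.0303). Atp5d, the delta subunit of the central stalk of ATP synthase, was at 72.7, 58.9, 79.4, 89.5, 74.7 and 54.5 CPM against 82.3 to 108 CPM in PS19. Its log2 fold change was -0.50 (SE 0.13, adjusted p = 0.0215). WT levels of both, 64.5 ± 8.31 and 79.4 ± 12.5 CPM (SD, n = 5), lay nearer those of CgA-KO/PS19 (61.1 ± 14.5 and 71.6 ± 13.0 CPM) than those of PS19, without passing the test against PS19 (adjusted p = 0.0987 and 0.134). In Cox5a, CgA-KO/PS19 was at 38.4 to 58.8 CPM (log2 fold change -0.37, SE 0.12, adjusted p = 0.0564). Without CgA-KO/PS19 library 4, 13 rose and 8 fell, without CgA-KO/PS19 library 2 the counts were 3 and 0, without PS19 library 2 they were 3 and 1, and without WT library 4, which shares in the estimate of the spread, they were 11 and 6. Leaving out CgA-KO/PS19 library 1, 3 or 6 or PS19 library 1, 4 or 6 left 1 that fell. With the close libraries averaged as above, 0 rose and 0 fell, as was also the case without CgA-KO/PS19 libraries 1 to 3.

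**Figure D4:**
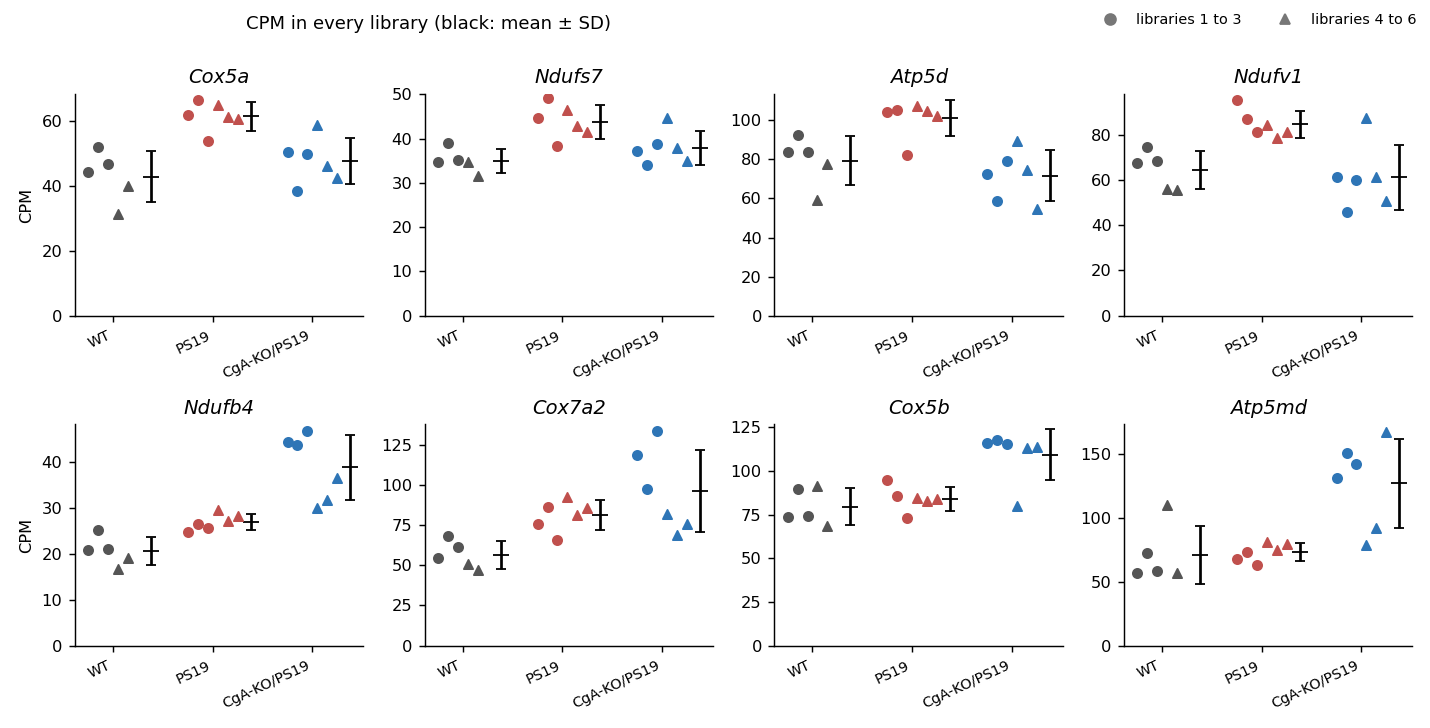
CPM per library of Cox5a, Ndufs7, Atp5d, Ndufv1, Ndufb4, Cox7a2, Cox5b and Atp5md by genotype, with circles for libraries 1 to 3, triangles for libraries 4 to 6, and the mean ± SD in black. Ndufb4 in CgA-KO/PS19 lies at 29.9 to 46.7 CPM, above all PS19 libraries, and Cox5a in PS19 lies at 53.9 to 66.6 CPM, above all WT libraries.

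The median log2 fold change in this comparison was 0.24 for complex IV, with 13 of 17 genes above 0, and -0.31 for complex II, with 4 of 4 below 0. The median of complex IV was -0.065 without CgA-KO/PS19 libraries 1 to 3, 0.00788 with the striatum marker level as a covariate and 0.12 after correction for GC content and length. It was 0.07 for complex I, -0.14 for complex III and 0.02 for complex V. The differences between complexes were not tested. In complex II, the log2 fold change was -0.11 for Sdha (95% interval -0.28 to 0.07), the flavoprotein that oxidizes succinate, and -0.29 for Sdhb (-0.50 to -0.09, adjusted p = 0.0615), the iron-sulfur subunit. The membrane anchors Sdhc and Sdhd were at -0.37 and -0.33 (adjusted p = 0.114 and 0.107). Sdhb was at 78.3, 74.5, 89.4, 94.9, 83.0 and 71.2 CPM in CgA-KO/PS19 libraries 1 to 6 and at 86.5, 93.6, 87.8, 64.6 and 82.5 CPM in WT libraries 1 to 5, while the lowest, median and highest PS19 values were 89.0, 101 and 109.6 CPM. By the same grouping by role, medians were -0.19 for the complex I core, -0.34 for the complex III core and Rieske protein and -0.04 for the small subunits of complex III. In ATP synthase they were -0.24 for the F1 head, -0.35 for the c ring, 0.12 for the peripheral stalk and 0.29 for the small membrane subunits, and the last was -0.06 in libraries 4 to 6 alone. Differences between these groups were not tested.

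CgA-KO/PS19 was also compared with WT. Of 87 subunit genes, 16 were higher in CgA-KO/PS19 (18.4%, against 3.56% of all genes) and 0 lower (against 2.89%). Complex I held 6 of them (Ndufb4, Ndufb4c, Ndufb1, Ndufb9, Ndufv2 and Ndufa1), complex IV 5 (Cox5b, Cox6c2, Cox7a2, Cox7b and Cox7c), complex V 4 (Atp5k, Atp5l, Atp5md and Atp5mpl), complex III only Uqcrh, and complex II 0. By the rule of the study's methods, 15 were higher and 0 lower, against 4.66 and 3.09% of all genes. Log2 fold changes were above 0 for 75 of 87 genes, with a median of 0.21 against 0.01 for all genes. At an unadjusted p under 0.05, 25 were higher and 1 lower, and 5006 of 23062 genes passed. The groups did not overlap for 5 of 87, all higher in CgA-KO/PS19 (5.75%, against 2.06% of all genes), namely Cox6c2, Cox7a2, Cox7b, Ndufb4 and Ndufb9. This comparison and the other pair share their libraries, so the 3 sets of fold changes are not independent.

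Ndufb4 had the smallest p-value, with 16.8 to 25.2 CPM in WT and 29.9 to 46.7 CPM in CgA-KO/PS19 (log2 fold change 0.91, SE 0.13, adjusted p = 0.000784). It passed under 33 of 33 alternatives tried, none of which dealt with counts that could be shared with its close copy Ndufb4c. Cox7a2, a small membrane subunit of complex IV, was at 54.4, 68.2, 61.5, 50.5 and 46.95 CPM in WT and at 119, 97.3, 133, 81.6, 69.1 and 75.6 CPM in CgA-KO/PS19. PS19, at 65.6 to 92.3 CPM, overlapped both groups, and the CgA-KO/PS19 values of 81.6, 69.1 and 75.6 CPM lay within its range. Against PS19, the log2 fold change of CgA-KO/PS19 was 0.63 in libraries 1 to 3 and -0.21 in libraries 4 to 6. The log2 fold change of CgA-KO/PS19 against WT was 0.77 (SE 0.16, adjusted p = 0.00952). Cox7b, of the same kind, was at 62.9 to 91.0 CPM in WT and 91.9 to 159.9 CPM in CgA-KO/PS19 (log2 fold change 0.75, SE 0.14, adjusted p = 0.00599). Ndufb9, an accessory subunit of complex I, was at 68.3 to 86.7 CPM against 86.9 to 142 CPM (log2 fold change 0.61, SE 0.13, adjusted p = 0.0107). Cox7c had a log2 fold change of 0.61 (SE 0.18, adjusted p = 0.0485).

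Of the 7 core subunits of complex I, 1 was called higher in CgA-KO/PS19 than in WT, namely Ndufv2, an iron-sulfur subunit of the NADH module (log2 fold change 0.34, SE 0.09, adjusted p = 0.0391). Other core and catalytic subunits did not pass, and their log2 fold changes were 0.01 for Ndufs1 (95% interval -0.25 to 0.28), 0.09 for Sdha (-0.09 to 0.27), -0.02 for Sdhb (-0.23 to 0.19), 0.05 for Uqcrc1, 0.05 for Uqcrfs1, -0.06 for Atp5a1 (-0.26 to 0.15) and 0.14 for Atp5b. Cox4i1 was at 0.43 (0.15 to 0.71, adjusted p = 0.0586). Medians by complex were 0.21 for I, 0.02 for II, 0.18 for III, 0.36 for IV and 0.14 for V. By role, the 5 small membrane subunits of ATP synthase had a median of 0.56, with 4 called higher, against 0.09 for the F1 head, 0.11 for the c ring and 0.16 for the peripheral stalk. In complex III it was 0.32 for the small subunits and 0.05 for the core and Rieske proteins. Without WT library 5, 5 of 87 were higher in CgA-KO/PS19, without WT library 1 or 3 there were 9, and without CgA-KO/PS19 library 1, 2 or 3, 7 to 9 were. With the close libraries averaged 5 were higher, and without CgA-KO/PS19 libraries 1 to 3 together 3 were.

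CgA-KO/PS19 libraries 1 to 3 differed from 4 to 6, a split read from library numbers and Ddx3y after the data were seen. Fits on each set alone gave different pictures. In libraries 1 to 3, 29 of 85 subunit genes rose in CgA-KO/PS19 against PS19 (14.9% of all genes did) and 11 fell (16.2% did). Complex IV had 10 higher and 0 lower of 16, complex I 12 higher and 5 lower of 40, complex V 5 and 3 of 17, complex III 2 and 2 of 8, and complex II 0 and 1 of 4. The 10 of complex IV included Cox4i2, Cox7b2 and Cox6b2, at only 1.12, 0.592 and 0.526 CPM per kilobase over all libraries. They also included Cox6c2, whose counts are uncertain. Among those that fell were Ndufv1, Ndufs1, Sdha, Uqcrc1, Uqcrc2, Atp5a1, Atp5b and Atp5d. Ndufa9 and Ndufa10, accessory subunits of complex I, fell as well. In libraries 4 to 6, 0 of 87 rose (0.543% of all genes did) and 0 fell (0.263% did), and 59 log2 fold changes were below 0. The SD of the log2 ratio of a pair, as above, was 0.139 to 0.342 among CgA-KO/PS19 libraries 1 to 3. Among libraries 4 to 6 it was 0.360 to 0.646, so counts of calls in the sets are not directly comparable. The close libraries were not averaged in these fits. Medians by complex I to V were 0.23, -0.25, 0.26, 0.56 and 0.28 in libraries 1 to 3, and -0.10, -0.39, -0.27, -0.12 and -0.20 in libraries 4 to 6. Thus complex II had a median below 0 in both sets, and the other 4 complexes changed sign.

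The difference between the sets was itself tested in 1 edgeR fit with 6 means, each from 2 or 3 libraries. PS19 libraries 4 to 6, and CgA-KO/PS19 libraries 1 and 3, were not averaged in it. Its adjusted p-values thus treat these close libraries as separate samples. Of 87 subunit genes, 14 had a more positive effect in libraries 1 to 3 (4.97% of all genes did) and 3 a more negative one (6.68% did). Cox7c, a small complex IV subunit, had log2 fold changes of 0.78 (SE 0.15) in libraries 1 to 3 and -0.25 (SE 0.12) in libraries 4 to 6, and the fitted difference was 0.999 (adjusted p = 0.00535). For Ndufb9 they were 0.67 (SE 0.10) and -0.06 (SE 0.09), with a difference of 0.70 (adjusted p = 0.00360). Cox7a2, Cox7b, Cox6a1, Cox4i2, Uqcr10, Uqcr11, Atp5j2, Atp5k, Ndufa3, Ndufb4, Ndufb8 and Ndufs4 were the others with a positive difference. Ndufs1, Uqcrc2 and Atp5a1 had a negative one, with Ndufs1 at -0.35 (SE 0.10) and 0.34 (SE 0.12). Ndufs1 was at 103 to 119.6 CPM in CgA-KO/PS19 libraries 1 to 3 and at 129 to 171 CPM in libraries 4 to 6. Some of the genes called over all libraries had close values in both sets, among them Ndufb10 (0.38 and 0.41), Atp5d (-0.45 and -0.54) and, of those not called, Cox5a (-0.38 and -0.36) and Sdhb (-0.31 and -0.28). Atp5md was at 1.07 and 0.49, Ndufb4 at 0.83 and 0.19, Cox5b at 0.48 and 0.27, and Ndufv1 at -0.64 and -0.31.

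Other measures moved with the same split. Between CgA-KO/PS19 libraries 1 to 3 and 4 to 6, median scores were 0.55 and -0.05 for 99 cytosolic ribosomal protein genes, 1.53 and 0.32 for mitochondrially encoded genes, 0.71 and -0.41 for 8 astrocyte markers, 0.69 and -0.03 for 8 oligodendrocyte markers, and 1.96 and -1.28 for 16 striatum markers. Their part in the subunit results was not tested, and sex, library number and these measures cannot be told apart. For WT against PS19 the sets gave 0 lower of 85 in libraries 1 to 3 (0.139% of all genes were lower), with 70 below 0 and a median of -0.14. They gave 10 lower of 87 in libraries 4 to 6 (2.86% of all genes), with a median of -0.37, where WT had only libraries 4 and 5. For CgA-KO/PS19 against WT, 29 were higher in libraries 1 to 3 (9.16% of all genes) and 3 in libraries 4 to 6 (1.44% of all genes), the latter being Cox7a2, Ndufb4 and Cox7b. Medians for this last comparison, 0.34 and 0.22, were above 0 in both sets.

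Transcript length also went with the fold changes. For CgA-KO/PS19 against PS19, the median was 0.33 for the 13 subunit genes whose longest transcript is under 600 bases, 0.18 for the 32 of 600 to 1000 bases, -0.15 for the 24 of 1000 to 2000 bases and -0.01 for the 18 of 2000 bases or more. Other genes above 10 CPM in the same bins had medians of 0.27, 0.04, -0.10 and -0.07. Against WT, the subunit medians were 0.40, 0.30, 0.14 and 0.10, and those of other genes 0.54, 0.17, -0.03 and -0.08. In WT against PS19 they were -0.23, -0.24, -0.29 and -0.14, with other genes at -0.18, -0.14, -0.09 and -0.01. Within single libraries, deviations of the subunit genes correlated with length at r = -0.305, -0.307 and -0.265 in CgA-KO/PS19 libraries 1 to 3, against -0.078 to 0.335 in the others, across genes that share a library. The part of length in the medians by role was not tested.

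**Figure D5:**
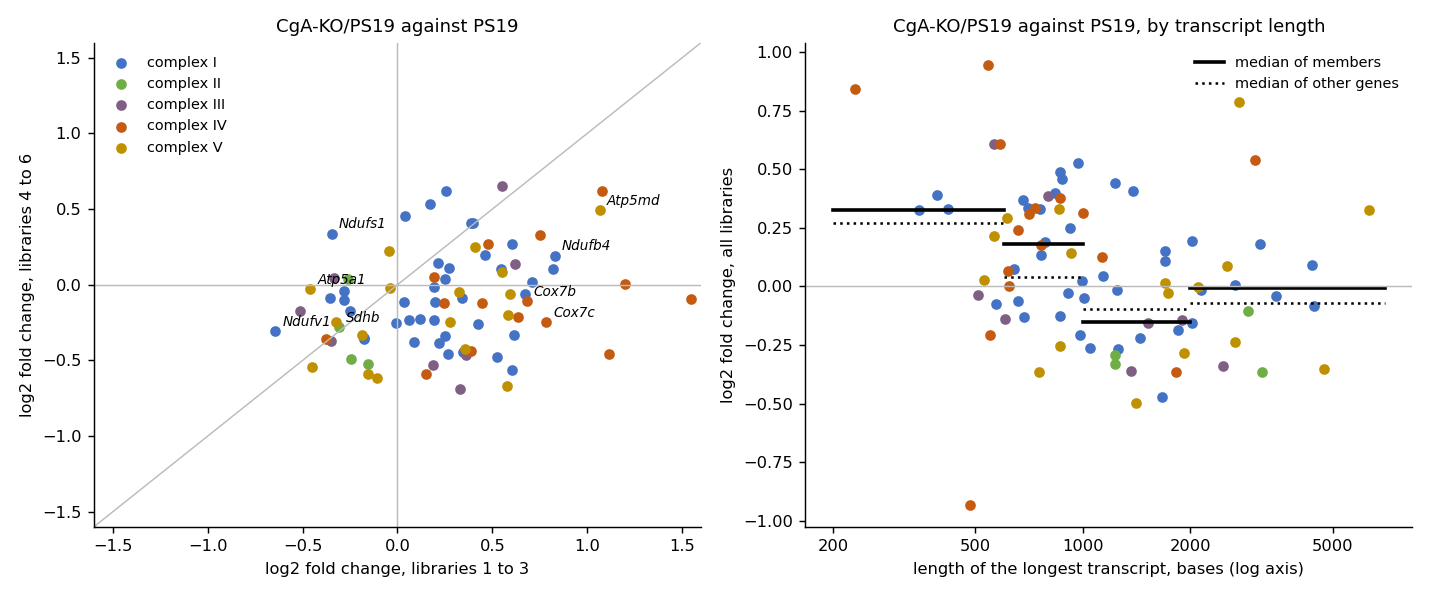
Left, log2 fold change of CgA-KO/PS19 against PS19 in libraries 1 to 3 (horizontal) and 4 to 6 (vertical) for 84 subunit genes, with 1 outside the axes. Right, the log2 fold change over all libraries against length of the longest transcript (log axis), with medians per length bin for subunit genes (solid) and other genes above 10 CPM (dotted): subunit medians fall from 0.33 under 600 bases to -0.15 at 1000 to 2000 bases.

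Variation within a genotype was ordinary for these genes. The median SD of log2(CPM + 1) after taking out genotype means was 0.230 over 79 subunit genes above 10 CPM and 0.232 over 9797 other genes. Ndufa10, an accessory subunit of complex I, varied least (0.107) and Ndufa7 most (0.570). After the same step, the median Pearson r of 2 genes of the same complex over the 17 libraries was 0.19, and of genes of different complexes 0.23. By complex it was 0.64 for II (6 pairs), 0.44 for IV, 0.25 for V, 0.16 for I and 0.02 for III. Pairs with cytosolic ribosomal protein genes had a median r of 0.34, which was 0.54 for complex IV, and pairs with mitochondrially encoded genes one of 0.14. These libraries share depth and GC trends, and r is given as a description.

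Genes around the pathway were counted from lists in the same fit. Of 46 assembly factors, 0 passed in WT against PS19, 3 fell in CgA-KO/PS19 against PS19 (4.22% of all genes fell), and 0 passed against WT. Those 3 were Acad9 (log2 fold change -0.36, adjusted p = 0.0334), which helps build complex I, Cox15 (-0.40, adjusted p = 0.0486), needed for heme a of complex IV, and Atpaf2 (-0.32, adjusted p = 0.0340), an assembly factor of the F1 head. Of 5 tested subunits and carriers outside the symbol rule (Cyc1, Cycs, Atpif1, Dmac2l and Cox6a2), 0 passed in any comparison. Cyc1, which encodes cytochrome c1, had log2 fold changes of -0.56 in WT (adjusted p = 0.0647) and -0.39 in CgA-KO/PS19 (adjusted p = 0.131) against PS19. Of 22 regulators, Gabpb2 was higher in WT than PS19 (0.37, adjusted p = 0.0399), as were 3.95% of all genes. Gabpa, the ETS factor named above, rose (0.33, adjusted p = 0.0440) and Esrrb fell (-1.24, adjusted p = 0.0224) in CgA-KO/PS19 against PS19, and 0 passed against WT. Of all genes, 5.50% rose and 4.22% fell in CgA-KO/PS19 against PS19.

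Neighbouring pathways were counted beside the nuclear subunits, and no test compared the lists with them. The shares called over all genes were 5.50% up and 4.22% down for CgA-KO/PS19 against PS19, 3.56% up and 2.89% down against WT, and 3.95% up and 1.95% down for WT against PS19. All 13 mitochondrially encoded genes rose in CgA-KO/PS19 against PS19 (median log2 fold change 1.93), 7 of 13 were higher than in WT (1.34), and 0 passed in WT against PS19 (0.60). Thus mt-Co1, the catalytic core of complex IV, rose by 1.48 (adjusted p = 0.00783), whereas Cox4i1 was at 0.18 and Cox5b at 0.38. Of 16 tricarboxylic acid cycle genes, 3 fell in CgA-KO/PS19 against PS19 (Ogdh, Idh3a and Dlat, -0.33 to -0.39), 0 passed in WT against PS19, and Suclg2 alone was higher than in WT. Of 17 glycolysis entries, 6 fell (Eno2, Tpi1, Pfkl, Pfkm, Pgam1 and Pgk1, -0.44 to -0.76), 0 passed in WT against PS19, and Aldoc was higher than in WT. Cytosolic ribosomal protein genes had 18 of 99 higher and 3 lower against PS19 (median 0.27), 46 higher and 1 lower against WT (0.59), and 2 higher and 2 lower in WT against PS19 (-0.31). Mitochondrial ribosomal protein entries, pseudogenes included, had 3 of 83 higher and 2 lower against PS19, 1 lower against WT, and 1 lower in WT against PS19. Of 42 proteasome genes, 1 rose and 3 fell against PS19, 0 passed against WT and 2 were lower in WT than PS19. Of 23 outer membrane, import and carrier genes, Timm13 fell against PS19, Tomm7 was higher and Tomm70a lower than in WT, and Tomm70a was higher and Timm13 lower in WT than in PS19.

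Markers of other cells and regions were counted the same way. Striatum markers were higher than in PS19 for 15 of 16 in WT and 10 of 16 in CgA-KO/PS19, and choroid plexus markers for 5 of 8 and 1 of 8, with 4 of 8 choroid plexus markers lower in CgA-KO/PS19 than in WT. Of 8 astrocyte markers, Aldh1l1 was lower in WT than PS19, Slc1a3 and Aqp4 rose in CgA-KO/PS19 against PS19, and Aldoc was higher than in WT. Of 8 oligodendrocyte markers, Ermn and Mobp rose against PS19 and Mbp and Mobp were higher than in WT. Of 10 neuron markers, 2 fell against PS19 and 1 was lower than in WT. Of 6 striated muscle markers tested, Acta1 and Pvalb, which is also made by cortical interneurons, were lower in WT and in CgA-KO/PS19 than in PS19. Microglia (8), endothelium (8), pericyte and mural (12) and blood (5) markers had 0 called in each comparison. With the striatum marker level as a covariate, 31 subunit genes were lower in WT than PS19 and 30 were higher in CgA-KO/PS19 than WT. Shares of all genes called with this covariate are not given, so these counts are not a result about subunit genes. The counts above thus depend on whether that list enters the fit. The score of that list was 0.69 to 2.43 in WT and -1.37 to -1.15 in PS19. These ranges did not overlap, so the adjusted WT against PS19 values extrapolate between separate groups.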

How the data were processed

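Bulk RNA sequencing libraries of prefrontal cortex from 5 WT, 6 PS19 and 6 CgA-KO/PS19 samples were analysed. Per the labels and the submitters' processing notes, the authors trimmed reads with Trimmomatic 0.39, aligned them to mm10 with STAR 2.7.10b, and quantified genes with StringTie 1.3.6. The deposited values are whole-number counts per gene from prepDE, not normalized. Such counts are derived from coverage and an assumed read length, so that counting error is not given by the counts themselves, and the spread between libraries sets the tests. The use of strand in counting is not given in the sources used here, so overlapping genes are uncertain. Total counts per library were 8838334 to 227651681, and low counts in WT library 4 are the least precise.

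Counts were fitted with edgeR 4.0.16 in R 4.3.3 (TMM, filterByExpr by genotype, quasi-likelihood test, all 17 libraries, 1 mean per genotype), with Benjamini-Hochberg adjustment over 23062 genes. A call is an FDR under 0.05; the rule of the study's methods (absolute log2 fold change over 0.5, unadjusted p under 0.01) was also applied. On simulated counts for WT against PS19 (22594 genes), edgeR recovered 14 of 100 genes changed by 0.5 on the log2 scale and 74 of 100 changed by 1. It made 6 false calls, against 42 by DESeq2 and 8 by limma voom. The changed genes were drawn only from those with high mean counts, and the simulated libraries held no GC trend. DESeq2 1.42.0, limma 3.58.1 voom and other filters, scalings, covariates and subsets of libraries were alternatives. CPM uses TMM library sizes, and lengths are unions of exons in GENCODE M21, which held all 91 genes by identifier. Gene coordinates are those of GENCODE M21 (GRCm38, mm10). Python 3.11.15 served for tables (pandas 2.3.3, numpy 2.4.6), intervals (scipy 1.17.1) and plots (matplotlib 3.10.9).

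The genes, lists and comparisons were chosen with earlier results of these data known. Named with values were core subunits, isoform pairs, in each comparison the 5 genes with the smallest p and the called genes with the largest changes, the highest and lowest genes per length, and the untested genes; others, such as those that differ between library sets, were named after their values were seen. Replicates are samples that the labels number apart, and p-values measure the spread between them. The values of 1 of the genes are not reported here. Values of the authors' own comparisons were not used.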

Additional observations from a re-analysis of the deposited data

Results flagged for a closer look

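In groups of 4 to 6 libraries, the highest or lowest library was set against the gap that chance gives in about 1 of 20 groups, and 22 of 159 groups passed it. Those named in WT library 4, the shallowest, were Atp5a1 (516 CPM), Atp5g1 (21.8 CPM), Atp5g2 (8.33 CPM) and Cox7b2 (0 CPM), each the lowest of WT, and Atp5md (109.8 CPM), Ndufa4 (142 CPM) and Ndufs6b (0.342 CPM). The complex II score of that library, -0.50, was also far below those of the other WT libraries. WT library 2 was the highest of WT for Cox7b (91.0 CPM), and WT library 5 for Cox8b (0.705 CPM).

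PS19 library 3 was far from the other PS19 libraries for Atp5d (82.3 CPM), Atp5g2 (28.7 CPM), Cox8a (153 CPM) and Ndufb9 (77.8 CPM), for the complex V score (-0.13) and for the score over all subunit genes (-0.10), each the lowest of the group. Single PS19 libraries also stood apart for Cox6c2 (2.96 CPM, library 4), Ndufb10 (58.8 CPM, library 2) and Ndufv2 (84.8 CPM, library 6). In CgA-KO/PS19, library 4 stood apart for Cox5b (79.8 CPM, the lowest) and Ndufv1 (87.7 CPM, the highest), and both of these values lay within the PS19 range. Library 6 had the outlying value of Ndufa4l2 (0.520 CPM).

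The effect of CgA-KO/PS19 against PS19 differed between libraries 1 to 3 and 4 to 6 for 17 genes by a test of the difference itself (edgeR, FDR under 0.05 over 23062 genes). The close libraries were not averaged in that fit. Differences in log2 fold change, libraries 1 to 3 minus 4 to 6, were 1.54 for Cox4i2, 0.999 for Cox7c, 0.99 for Uqcr11, 0.92 for Ndufa3, 0.81 for Cox7a2, 0.80 for Cox6a1, 0.79 for Uqcr10, 0.76 for Ndufb8, 0.75 for Cox7b, 0.75 for Atp5k, 0.75 for Atp5j2, 0.70 for Ndufb9, 0.65 for Ndufs4 and 0.60 for Ndufb4. They were -0.72 for Ndufs1, -0.46 for Atp5a1 and -0.41 for Uqcrc2. The sets were chosen after the data were seen, and they also differ in Ddx3y, mitochondrial share and striatum, astrocyte and oligodendrocyte markers, so that none of these can be told apart from library number.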

How the results depend on the processing

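Alternatives are given for subunit genes called lower in WT against PS19 (3 as reported), higher and lower in CgA-KO/PS19 against PS19 (6 and 2) and higher in CgA-KO/PS19 against WT (16), then by the rule of the study's methods (4, 3, 0 and 15). Settings not listed moved no count by over 1.5 times. The cause of each shift was not tested unless fewer libraries or genes entered. Shares of all genes called under the alternatives are not given here, so a shift may not be particular to subunit genes.
DESeq2 gave 8 lower in WT, 10 higher and 4 lower against PS19 and, by the rule, 5 higher against PS19. Limma voom gave 19 lower in WT, 13 higher and 11 lower against PS19, with 2 lower against PS19 by that rule. With only the 2 genotypes compared the counts were 14 lower in WT, 4 lower against PS19 and 2 higher against WT, with 5 higher against PS19 by the rule. Without a filter they were 1 lower in WT, 3 higher against PS19 and 9 higher against WT, with 2 lower against PS19 by the rule, and with at least 10 counts in every library 5 were higher against PS19 by the rule.
The correction for GC content and length, added after the data were seen, gave 3 higher against PS19 and 7 higher against WT, and by the rule 1 lower in WT, 7 higher and 1 lower against WT. Medians moved to -0.039 (I), -0.12 (IV) and -0.13 (V) in WT, 0.023 (I) and 0.12 (IV) against PS19, and 0.036 (III) and 0.23 (IV) against WT.
The Ddx3y level as a covariate gave 7 lower in WT. Striatum marker levels of WT and PS19 did not overlap, so values of that comparison with this covariate are extrapolations. The striatum marker level gave 31 lower in WT, 3 higher against PS19 and 30 higher against WT, and by the rule 29, 6, 3 and 24 in the order above, with medians of -0.29, -0.52, -0.46, -0.59 and -0.44 for complexes I to V in WT against PS19, -0.033 (I), -0.30 (III) and 0.00788 (IV) against PS19, and 0.56 (IV) and 0.31 (V) against WT.
The labels do not say whether the numbers pair the samples. Of 16 same-numbered correlations, 2 were over 0.1, and WT and CgA-KO/PS19 libraries 3 had 0.414. Such a count cannot decide whether samples were paired. With a replicate block the counts were 0, 2, 0 and 6, with 1 lower against PS19 by the rule. Averaging PS19 libraries 4 to 6, and CgA-KO/PS19 libraries 1 and 3, which are close to each other, gave 0, 0, 0 and 5, with 1 lower in WT by the rule.
Without WT library 4 and CgA-KO/PS19 library 6, 10 rose and 5 fell against PS19, with 0 lower in WT and 5 higher against PS19 by the rule. Without CgA-KO/PS19 libraries 1 to 3 the counts were 11, 0, 0 and 3, by the rule 1 higher against PS19 and 2 against WT, with medians of -0.052 (I), -0.27 (III) and -0.065 (IV) against PS19 and 0.11 (I) and 0.14 (IV) against WT.
In libraries 1 to 3 alone the counts were 0, 29, 11 and 29, with 1 lower against WT, and by the rule 0, 19, 2 and 23, with medians of -0.21 (III) and -0.083 (IV) in WT, 0.23 (I), 0.26 (III), 0.56 (IV) and 0.28 (V) against PS19, and 0.32 (I), 0.37 (III) and 0.58 (IV) against WT. In libraries 4 to 6 alone they were 10, 0, 0 and 3, by the rule 13 lower in WT, 0 higher against PS19 and 4 higher against WT, with medians of -0.51 (II), -0.62 (III), -0.51 (IV) and -0.50 (V) in WT, -0.10 (I), -0.27 (III), -0.12 (IV) and -0.20 (V) against PS19 and 0.30 (III) against WT. Sdha against PS19 turned from -0.11 to 0.037 there.
Leaving out 1 library at a time gave 0 to 7 lower in WT, 3 to 13 higher and 0 to 8 lower against PS19, and 5 to 18 higher against WT. By the rule the ranges were 0 to 9, 2 to 6, 0 to 2 and 11 to 17, with 0 to 1 lower against WT.
Lengths of the longest transcript gave median levels of 44.1, 58.2, 74.3, 65.7 and 70.7 for complexes I to V.
Of the values of named genes, 422 kept their direction and side of the threshold, 142 lost and 27 gained the threshold over alternatives other than single libraries.
Differences of 0.5 on the log2 scale were mostly missed in the simulation, so genes not called may differ by that much.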
